A study of Rattus norvegicus with 43 samples.

Results

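Mgmt, Xpc, Nbn and Parg are 4 genes of DNA repair and of the response to DNA damage. They were chosen by name, as genes relevant to a carcinogen that methylates DNA, and all probes whose platform annotation gives one of these symbols were taken. Each gene had 1 probe, so they make up 4 of the 8452 probes on the arrays, and all 4 passed the filter on dim probes that left 6381 probes for testing. The samples were colonic mucosa of male Sprague Dawley rats, which the labels call weanling, and 29 rats entered in 6 groups of a fat in the diet and a time. Every rat received azoxymethane at 15 mg/kg, and no untreated or reference RNA was included, so no level before the carcinogen can be given. The 12 h groups held 5 rats on corn oil, 5 on fish oil and 5 on olive oil, killed 12 h after the injection. The late groups held 5, 4 and 5 rats in the same order. Their own labels say 10 wk after injection, while the treatment protocol gives them another injection and then 9 wk. They are called 10 wk here, and age, time on the diet and number of injections differ between the times together and cannot be told apart. Each rat is a separate animal.

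Azoxymethane is converted in the body to a methylating agent that leaves, among other lesions, a methyl group on the O6 position of guanine, and it gives rise to colon tumours in rodents. Mgmt encodes the methyltransferase that takes this methyl group off guanine in a single step and is used up by doing so. Xpc encodes the protein that detects bulky, helix-distorting lesions and starts global nucleotide excision repair. Nbn encodes nibrin, which together with Mre11 and Rad50 forms the complex that senses double-strand breaks and helps to activate the kinase Atm. Parg encodes the glycohydrolase that takes apart poly(ADP-ribose), the polymer that Parp1 and Parp2 build at broken DNA.

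The promoters of Mgmt and Xpc are shown because Mgmt repairs the main mutagenic lesion of this carcinogen and varied most between rats, and Xpc was the gene of the 4 that rose. The sequences are RefSeq's on the GRCr8 build, 300 bases around the gene's start, and the build for which the arrays were designed was not used here. Capitals mark GC boxes (GGGCGG on either strand) and the E box CACGTG, which do not overlap here. The Mgmt window is chr1:201140582-201140881 on the plus strand, upstream of and within the start of a gene at 201140832 to 201367481. The Xpc window is chr4:125578035-125578334 on the minus strand, at the start of a gene at 125550833 to 125578084.
Mgmt: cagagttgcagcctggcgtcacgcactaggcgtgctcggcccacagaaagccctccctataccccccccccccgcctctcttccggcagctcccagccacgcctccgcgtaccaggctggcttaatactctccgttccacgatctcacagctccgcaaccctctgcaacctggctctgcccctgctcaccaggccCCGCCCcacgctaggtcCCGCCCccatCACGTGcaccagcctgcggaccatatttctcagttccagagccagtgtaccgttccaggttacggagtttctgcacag
Xpc: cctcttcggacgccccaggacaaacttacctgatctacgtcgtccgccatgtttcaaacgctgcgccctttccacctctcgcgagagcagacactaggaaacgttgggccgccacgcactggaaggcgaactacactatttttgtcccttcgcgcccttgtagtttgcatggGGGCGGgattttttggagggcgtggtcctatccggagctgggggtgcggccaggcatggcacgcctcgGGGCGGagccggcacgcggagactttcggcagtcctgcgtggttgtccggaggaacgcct
Each window held 2 GC boxes, and a GC box was present in 33.1% of 33469 rat promoter windows of the same length. The E box occurred 1 time in the Mgmt window and was not among the letters of the Xpc window, against 6.42% of all windows. No p53 half-site was found in either window, while 7.98% of all windows hold one. CpG pairs numbered 19 in Mgmt and 29 in Xpc, where the median window holds 7, and 25.7% and 11.5% of all windows hold at least as many. The Parg window, chr16:7442628-7442927 on the plus strand, held 34 CpG pairs and none of the 3 motifs, and is not printed. These matches describe the windows. The Nbn gene lies on chromosome 5 at 34256678 to 34291163, and the Parg gene on chromosome 16 at 7442696 to 7550585.

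Levels are log2 of intensity after background correction and quantile normalization, with repeat arrays averaged to 1 value per rat. The levels of the 4 genes are not compared with each other. Ranks and sums of markers, the choice of a brightest probe and the probes near the level of Mgmt do use levels across probes. All 4 genes were above the scanner's noise level on 43 of 43 arrays. Median spot signal was 7.85 times the noise level for Mgmt, 3.76 times for Xpc, 4.27 times for Nbn and 7.6 times for Parg. The labelled tissue could be checked on the epithelial markers Vil1 and Car2 and the goblet cell peptide Tff3, which stood above 98.5%, 99.4% and 99.7% of all probes. Not all markers went this way. In the same list as Tff3, the enteroendocrine markers Gcg and Sst stood above 51.8% and 35.2% of probes. Smooth muscle, fibroblast and lymphocyte markers stood above 19.6% (Cnn1) to 53.7% (Myh11). The macrophage marker Cd14 stood above 99% of probes. Apoa1, listed as a liver marker that should be absent, stood above 91.3%. Arrays fell into 3 scan classes by the area of the spots and of the background ring recorded in the files. Small ring arrays held 11 rats of 12 h and 2 of 10 wk, large ring arrays 3 and 12, and large spot arrays 4 and 2, with 5 rats in more than one class. Scan class therefore moves with time, and the averaged difference of each of the 4 genes, and each called difference of the 4 genes and of the brightest probe of a listed gene, is also given with scan class as a block, a fit in which repeat arrays of a rat were averaged within a class and the rat was a random block.

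**Figure D1:**
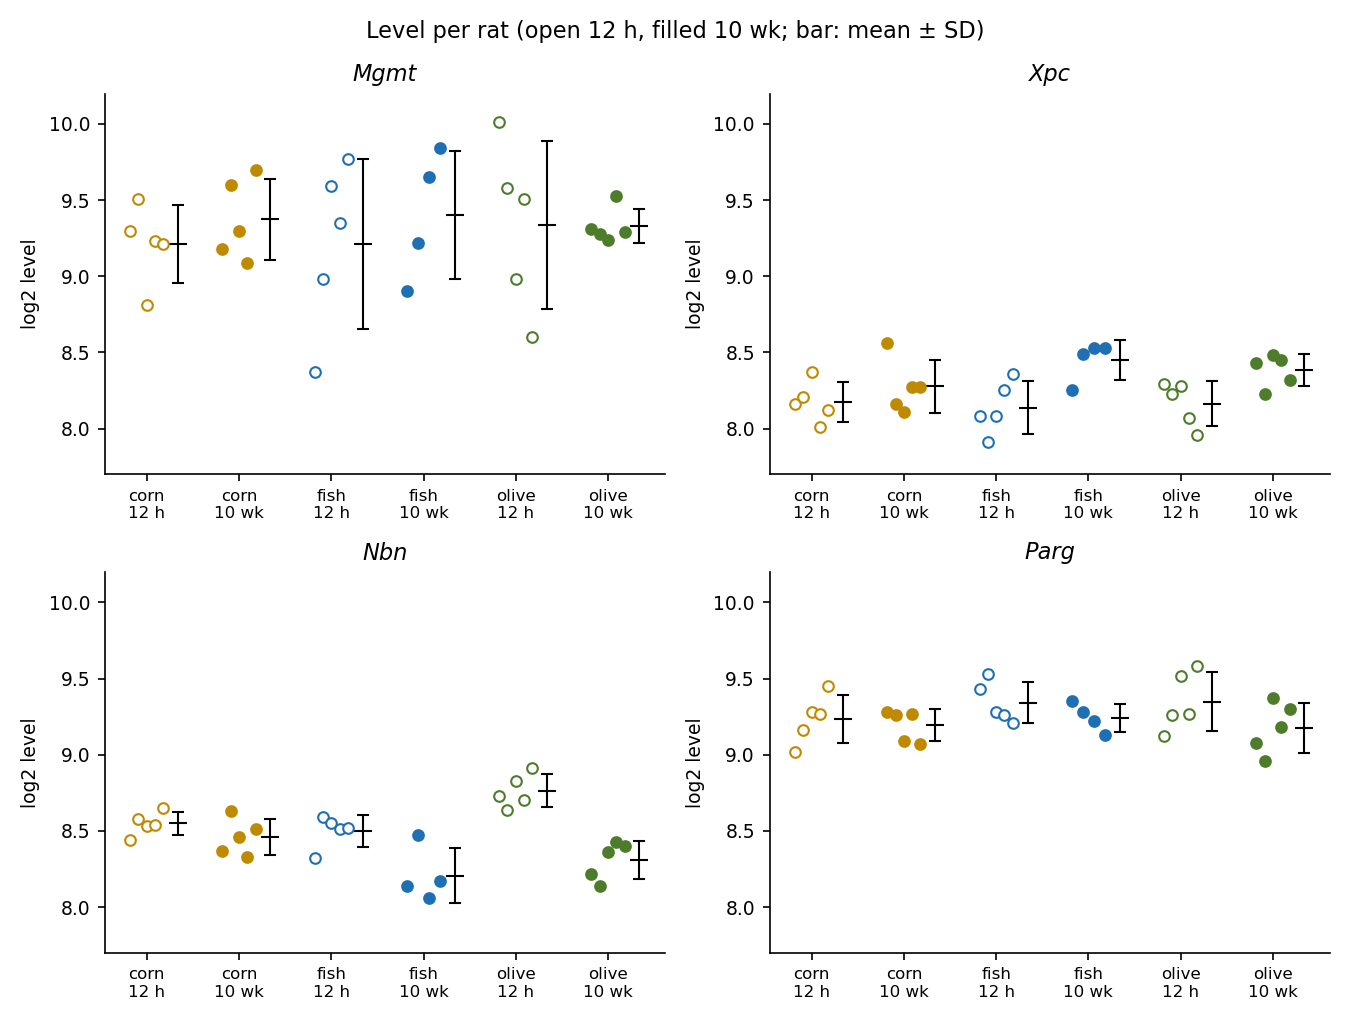
Level of each gene (y axis, log2 normalized intensity) in each of 29 rats by diet and time (x axis). Open points are 12 h, filled points 10 wk, and bars give the mean ± SD of a group. Mgmt spans 8.37 to 10.01 over the rats, and Nbn in olive oil is the pair of groups that do not overlap between times. The share of all tested probes that do likewise is not given.

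Between 12 h and 10 wk Xpc rose and Nbn fell on average over the diets, and Mgmt and Parg did not pass the test. Xpc was 1.16-fold higher at 10 wk (log2 difference 0.21 ± 0.06 SE, adjusted p = 0.00593 by limma with Benjamini-Hochberg adjustment over all tested probes). Nbn was 1.21-fold lower (fell by 0.28 ± 0.05 SE on the log2 scale, adjusted p = 0.000149). The fall of Nbn held with scan class as a block, at -0.26 (adjusted p = 0.00728), and the rise of Xpc did not, at 0.08 (adjusted p = 0.476). Over the same contrast 36.9% of all tested probes were called, 19.2% higher and 17.7% lower, so 2 of 4 is no sign that these genes were particularly affected. No gene of the 4 passed the test of a difference among diets at either time. In RNA of a whole tissue, fewer cells that use a gene and less of its RNA per cell cannot be told apart.

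Mgmt, the gene that removes the methyl group directly, differed more between rats than between groups. At 12 h the corn oil rats had log2 levels of 9.30, 9.51, 8.81, 9.23 and 9.21. The fish oil rats had 8.37, 8.98, 9.59, 9.35 and 9.77, and the olive oil rats 10.01, 9.58, 8.98, 9.51 and 8.60. Both the lowest rat (fish oil) and the highest rat (olive oil) of the whole series are among these 12 h rats, 3.12-fold apart. At 10 wk the corn oil rats had 9.18, 9.60, 9.30, 9.09 and 9.70. The fish oil rats had 8.90, 9.22, 9.65 and 9.84, and the olive oil rats 9.31, 9.28, 9.24, 9.53 and 9.29. All 6 groups overlap, and the late olive oil rats lie closest together, with an SD of 0.114 against 0.551 in the olive oil rats at 12 h.

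The group means of Mgmt ran from 9.21 ± 0.26 (SD, n = 5) in corn oil at 12 h through fish oil at 12 h, olive oil at 10 wk, olive oil at 12 h and corn oil at 10 wk to 9.40 ± 0.42 (SD, n = 4) in fish oil at 10 wk. No neighbours in this order differ by more than the larger of their SDs. The difference of 10 wk from 12 h was 0.12 ± 0.14 SE, with a 95% interval of -0.17 to 0.40 and an adjusted p of 0.542. By diet it was 0.16 in corn oil, 0.19 in fish oil and -0.005 in olive oil, with adjusted p-values of 0.764, 0.665 and 0.992. These intervals are wide: in fish oil the 95% interval ran from -0.32 to 0.70. With scan class as a block the averaged difference was -0.06 (adjusted p = 0.839), so its sign is not settled, and by diet it was 0.002, -0.035 and -0.133. Diets did not pass the test for Mgmt at 12 h (adjusted p = 0.937) or at 10 wk (adjusted p = 1), nor did the test of whether the time difference depends on diet (adjusted p = 0.97).

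The spread of Mgmt between rats of a group, an SD of 0.395, was larger than that of 90.1% of tested probes, whose median was 0.215. Among 1523 probes within 0.5 log2 units of its level the share with a smaller spread was 90.2%. Repeat arrays of one rat in one scan class had an SD of 0.155 for Mgmt (16 arrays of 7 rats), which is well under the spread between rats. Mgmt also differed between arrays of different scan class within single rats, and whether class was the cause was not tested. In the 4 rats with both ring classes, the large ring value was higher in 4 of 4. The gap was 0.27 and 0.29 in the corn oil rats 103 and 136, and 0.23 and 0.63 in the fish oil rats 206 and 236. The only large ring array of rat 136 and the only small ring array of rat 236 also had a high background. With class in the model the residual SD of Mgmt was 0.386. It came from 34 values of rats and classes without the rat as a block, while 0.395 came from averages of 29 rats. The values are therefore not like for like, and how much of the spread goes with class was not tested. Over all 12 h rats the SD was 0.445 and over all 10 wk rats 0.26, and whether these differ was not tested.

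**Figure D2:**
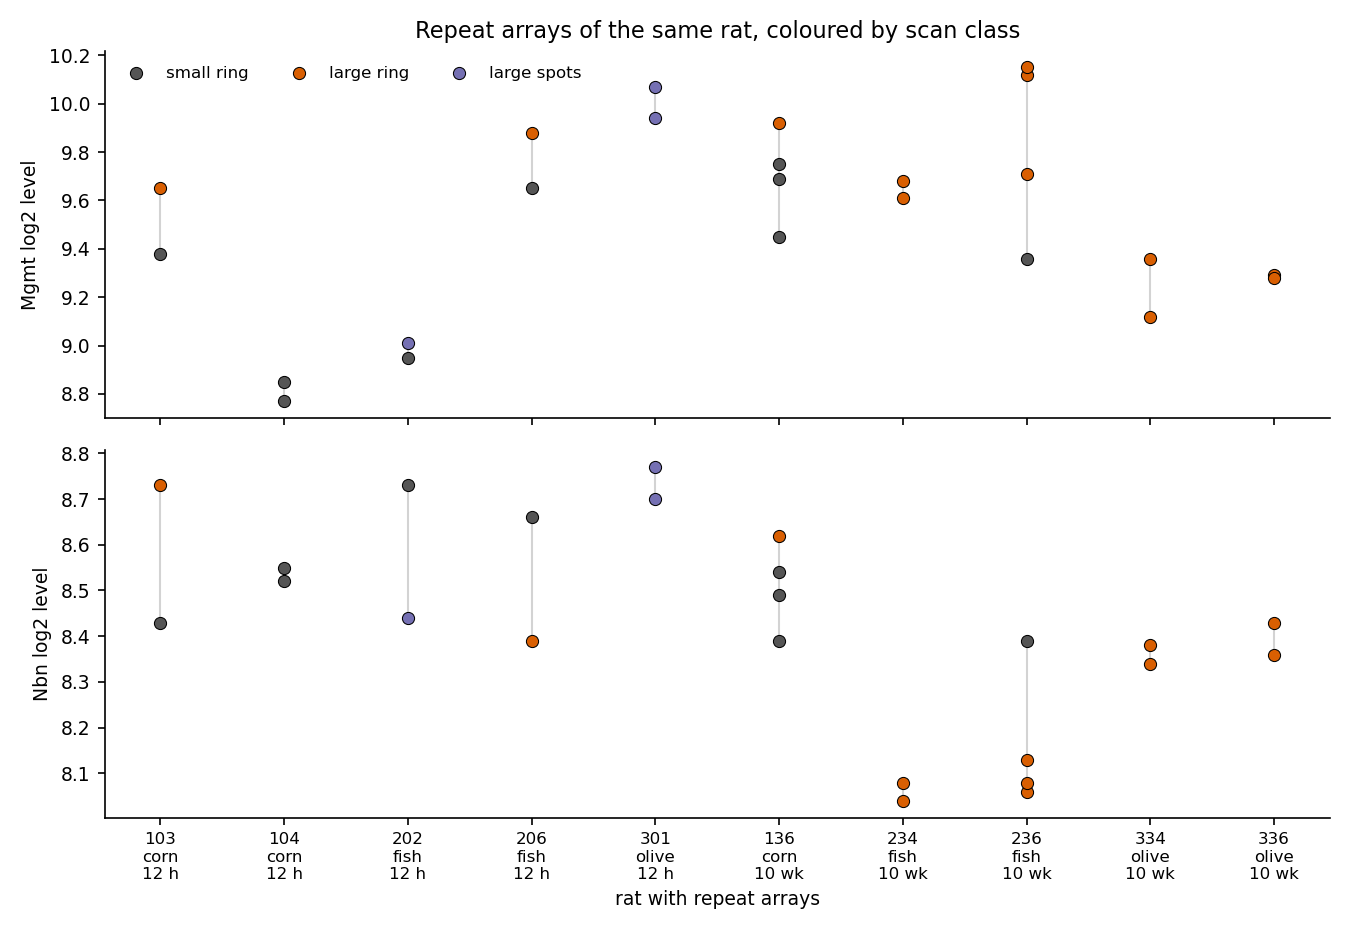
Log2 level of Mgmt (top) and Nbn (bottom) on each array of the 10 rats with repeat arrays, by rat (x axis). Points are arrays, colour is scan class and grey lines join the arrays of a rat. Mgmt is higher on the large ring arrays in the 4 rats with both ring classes, and Nbn goes either way.

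Xpc, which begins global excision repair, was higher at 10 wk in most rats. The 12 h levels were 8.16, 8.21, 8.37, 8.01 and 8.12 in corn oil and 8.08, 7.91, 8.08, 8.25 and 8.36 in fish oil. In olive oil they were 8.29, 8.23, 8.28, 8.07 and 7.96. No rat of 12 h exceeded 8.37. At 10 wk the corn oil rats had 8.56, 8.16, 8.11, 8.27 and 8.27, and the fish oil rats 8.25, 8.49, 8.53 and 8.53. The olive oil rats had 8.43, 8.23, 8.48, 8.45 and 8.32. Of the 14 late rats 13 lay above the 12 h mean, and 7 lay above every 12 h rat.

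The means of Xpc at 12 h, 8.14 in fish oil, 8.16 in olive oil and 8.17 in corn oil, lie closer than their SDs of 0.175, 0.146 and 0.129. They were followed by corn oil at 10 wk (8.28 ± 0.17, SD, n = 5), olive oil (8.39 ± 0.10, SD, n = 5) and fish oil (8.45 ± 0.13, SD, n = 4), and each group overlaps the next. The time difference was 0.31 in fish oil (adjusted p = 0.0498), 0.22 in olive oil (adjusted p = 0.129) and 0.10 in corn oil (adjusted p = 0.622), where 12.1%, 13.4% and 3.02% of all tested probes were called (higher at 10 wk 6.19%, 7.85% and 1.5%). The fish oil call sits at the threshold and was lost without any 1 of 22 of the 29 rats, with adjusted p-values up to 0.147. With scan class as a block it was 0.15 (adjusted p = 0.502), and it was also lost with median scaling (0.29, adjusted p = 0.0758), without background subtraction (0.29, adjusted p = 0.0505) and in the deposited intensities, as given (0.36, adjusted p = 0.416) and centred (0.33, adjusted p = 0.0775). The averaged rise kept its call without any 1 rat, at 0.19 to 0.23 and adjusted p-values of 0.00315 to 0.0129. Within scan classes the plain difference of means, not balanced over diets, was 0.15 on small ring, 0.10 on large ring and -0.01 on large spot arrays. In the same rats, Xpc was higher on large ring than on small ring arrays in 4 of 4, by 0.03 to 0.40. Diets did not pass the test for Xpc at 12 h (adjusted p = 0.975) or at 10 wk (adjusted p = 0.997), nor did the diet by time test (adjusted p = 0.938).

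Nbn, a subunit of the break sensor, was lower at 10 wk. At 12 h the corn oil rats had 8.44, 8.58, 8.53, 8.54 and 8.65, and the fish oil rats 8.32, 8.59, 8.55, 8.51 and 8.52. The olive oil rats had 8.73, 8.64, 8.83, 8.70 and 8.91, so that all 5 lay above every fish oil rat. At 10 wk the levels were 8.37, 8.63, 8.46, 8.33 and 8.51 in corn oil and 8.14, 8.47, 8.06 and 8.17 in fish oil. In olive oil they were 8.22, 8.14, 8.36, 8.43 and 8.40, all below every olive oil rat of 12 h. The share of all tested probes whose groups separate likewise is not given here, so neither separation is shown to be unusual. The 12 h mean exceeded 13 of the 14 late rats, and 5 of these lay below every 12 h rat.

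The fall of Nbn was 1.37-fold in olive oil (-0.46 ± 0.09 SE, adjusted p = 0.0016) and 1.22-fold in fish oil (-0.29 ± 0.09 SE, adjusted p = 0.036). In corn oil the difference was -0.09 ± 0.09 SE, with a 95% interval of -0.27 to 0.09 (adjusted p = 0.619). Of all tested probes 5.5% were called lower in olive oil, 5.92% in fish oil and 1.52% in corn oil. The test of whether these differences depend on diet gave an unadjusted p of 0.0199 and an adjusted p of 0.938 in limma, so the fall is not shown to differ between diets. With scan class as a block the olive oil value was -0.48 (adjusted p = 0.0145) and the fish oil value -0.26 (adjusted p = 0.145). The fish oil call was also lost without any 1 of rats 202, 203, 205, 206, 232, 234 and 236, with adjusted p-values up to 0.147.

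Among diets Nbn passed the test at neither time. At 12 h the means were 8.50 ± 0.10 in fish oil, 8.55 ± 0.08 in corn oil and 8.77 ± 0.11 in olive oil (SD, n = 5 each), with an adjusted p of 0.435 and an unadjusted p of 0.0105. At 10 wk they were 8.21 ± 0.18 in fish oil (SD, n = 4), 8.31 ± 0.12 in olive oil and 8.46 ± 0.12 in corn oil (SD, n = 5 each), with an adjusted p of 0.725 and an unadjusted p of 0.0308. By limma's F test 0 of 6381 probes were called at either time, and 599 at 12 h and 412 at 10 wk had an unadjusted p under 0.05. The mean of olive oil was the highest of the 6 groups at 12 h and the second lowest at 10 wk. Each neighbouring pair in the order of group means overlaps, though the steps of 0.22 from corn oil to olive oil at 12 h and of 0.15 from olive oil to corn oil at 10 wk exceed both SDs of their pairs.

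The averaged fall of Nbn held without any 1 rat, at -0.31 to -0.26 with adjusted p-values of 3.22e-05 to 0.000475. Within classes the plain difference of means was -0.18 on small ring arrays, -0.18 on large ring arrays and -0.33 on large spot arrays. It is not balanced over diets, and 2 late rats entered on small ring arrays and 2 on large spot arrays. In the authors' deposited normalized intensities the averaged difference was -0.23 (adjusted p = 0.0651). In those values 1 array, that of the corn oil rat 131 at 10 wk, has a median of 3.61 where no other exceeds 1.93, and with each array centred on its own median the value was -0.31 (adjusted p = 0.00019). Nbn had a spread of 0.119 between rats of a group, lower than that of all but 3.42% of tested probes. Repeat arrays in one class had an SD of 0.05. Across classes, however, single rats differed by as much as the times did: the gap was 0.15 to 0.30 in the 5 rats that span classes, with the large ring value higher in rats 103 and 136 and lower in rats 206 and 236.

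**Figure D3:**
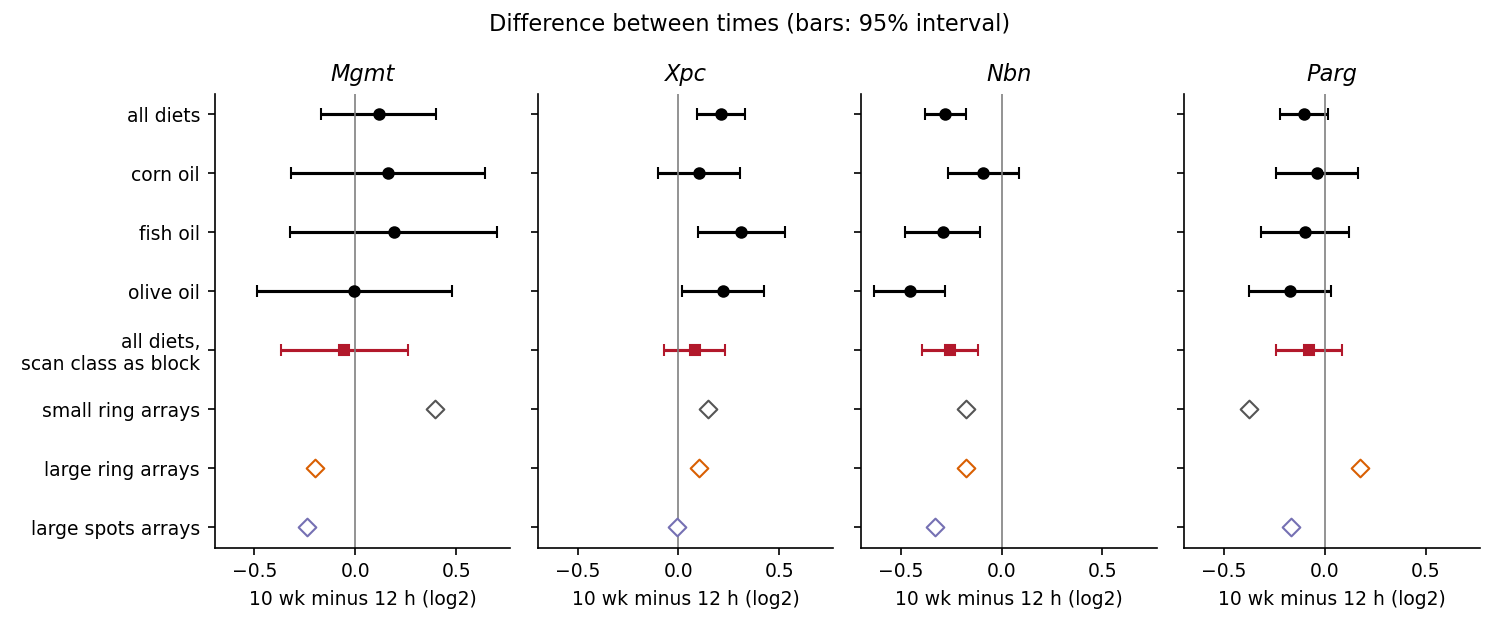
Difference of 10 wk from 12 h (x axis, log2) for each gene, averaged over diets, by diet, and averaged with scan class as a block. Bars are 95% intervals, and open diamonds are plain differences of means within 1 scan class. The interval of Nbn lies below 0 with and without the block, and that of Xpc covers 0 with the block.

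Parg, which removes the polymer that Parp enzymes lay down, did not pass any test. At 12 h the corn oil rats had 9.02, 9.16, 9.28, 9.27 and 9.45, the fish oil rats 9.43, 9.53, 9.28, 9.26 and 9.21, and the olive oil rats 9.12, 9.26, 9.52, 9.27 and 9.58. At 10 wk the levels were 9.28, 9.26, 9.09, 9.27 and 9.07 in corn oil, 9.35, 9.28, 9.22 and 9.13 in fish oil, and 9.08, 8.96, 9.37, 9.18 and 9.30 in olive oil. The mean of the 12 h rats was above 12 of the 14 late rats, and all groups overlap. The averaged difference was -0.10 ± 0.06 SE, with a 95% interval of -0.22 to 0.02 and an adjusted p of 0.172. With scan class as a block it was -0.08 (adjusted p = 0.519). It was -0.04 in corn oil, -0.10 in fish oil and -0.17 in olive oil, with adjusted p-values of 0.872, 0.587 and 0.247. The plain difference of means, not balanced over diets, changed sign between scan classes. It was -0.38 on small ring arrays, 0.18 on large ring arrays and -0.17 on large spot arrays. Rat 202 alone differed by 0.77 between its arrays of different class. Group means ran from 9.18 ± 0.16 (SD, n = 5) in olive oil at 10 wk to 9.35 ± 0.19 (SD, n = 5) in olive oil at 12 h, each group overlapping the next. The adjusted p was 0.773 for diets at 12 h, 1 for diets at 10 wk and 0.938 for diet by time.

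Across the wider repair machinery the calls went both ways. A list of 119 genes in 8 repair routes had 47 on the arrays by the platform annotation, and 37 were tested. Of these, 5 rose and 8 fell between 12 h and 10 wk averaged over diets, and 24 were not called, which is 35.1% called where all probes gave 36.9%. The median difference was -0.03, against 0.00 over all tested probes. Without Mgmt, Xpc, Nbn and Parg themselves, 4 of 33 rose and 7 fell. With scan class as a block 8 of the 37 were called, among them 4 of the 5 that had risen and 3 of the 8 that had fallen. Of all 6381 tested probes 1372 were called with the block. In the deposited intensities 5 genes of the list were called and 0 of them lower, and 1217 of the 5201 probes tested there were called.

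The other direct reversal gene tested, Alkbh3, an oxidative demethylase of alkylated bases, fell by 0.22 on the log2 scale (adjusted p = 0.00271), also with the block (-0.20, adjusted p = 0.0337). In base excision repair, the route for methylated purines other than O6-methylguanine, 0 of 6 tested genes were called, with differences of -0.08 to 0.16. Over all tested probes 36.9% were called in this contrast, 19.2% higher and 17.7% lower. With 6 genes here and 2 in mismatch repair, these counts are too small to set a route apart. In poly(ADP-ribose) metabolism Parp2, which builds the polymer that Parg degrades, fell by 0.20 (adjusted p = 0.00586), and this call was lost with the block (-0.18, adjusted p = 0.0809). The brighter probe of Parp1, the main polymer builder, differed by 0.02 (adjusted p = 0.85), while its second probe was higher by 0.17 (adjusted p = 0.0326). In mismatch repair, which acts on unrepaired O6-methylguanine after replication, 1 of 2 tested genes fell, the MutL homologue Mlh3 (-0.26, adjusted p = 0.0123; with the block -0.20, adjusted p = 0.0821). The other, Pcna, was not called (-0.19, adjusted p = 0.0837).

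In nucleotide excision repair 2 of 9 tested genes rose and 1 fell, which is 33.3% called. Of all tested probes 36.9% were called in this contrast, 19.2% higher and 17.7% lower. Beside Xpc, Lig1, the ligase that seals nicks in repair and replication, rose by 0.26 (adjusted p = 0.0246), a call lost without rat 234 or rat 236 (adjusted p up to 0.0597). Ercc3, the helicase of TFIIH that opens DNA at a lesion, fell by 0.21 (adjusted p = 0.0026). Both passed with the block, at 0.32 (adjusted p = 0.0383) and -0.18 (adjusted p = 0.0359). In double-strand break repair 3 of 8 tested genes fell and 0 rose, which is 37.5% called. The share of all tested probes is 36.9% in either direction and 17.7% lower, and 8 genes are too few to set this route apart. The 3 that fell were Nbn, Mdc1 (-0.35, adjusted p = 0.000164), the mediator that nibrin binds at breaks, and Mus81 (-0.16, adjusted p = 0.0149), a nuclease that cuts branched DNA. With the block Nbn alone of the 3 was called, Mdc1 being at -0.22 (adjusted p = 0.0615) and Mus81 at -0.16 (adjusted p = 0.0668).

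The largest rises of the list were of 2 genes in translesion and crosslink repair, a route whose median difference was -0.12. In it 2 of 5 tested genes rose and 1 fell, where 19.2% of all tested probes were called higher and 17.7% lower. Fancd2, which is ubiquitinated at stalled forks, was 1.37-fold higher at 10 wk (0.46, adjusted p = 0.00109), and Dclre1a, a nuclease of crosslink repair, was 1.28-fold higher (0.35, adjusted p = 0.00972). In the same route Ube2n, which builds ubiquitin chains in damage tolerance, fell by 0.31 (adjusted p = 0.0147). The 2 genes not called, Mad2l2 and Ube2b, were at -0.19 and -0.12 (adjusted p = 0.169 and 0.0999). Hus1, a subunit of the clamp that signals damage to Atr, was the 1 damage signalling gene tested and rose by 0.25 (adjusted p = 0.00336). With the block Fancd2, Dclre1a and Hus1 kept their calls, at 0.38, 0.36 and 0.32 (adjusted p-values 0.017, 0.0243 and 0.00271), and Ube2n lost its call (-0.29, adjusted p = 0.0871).

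**Figure D4:**
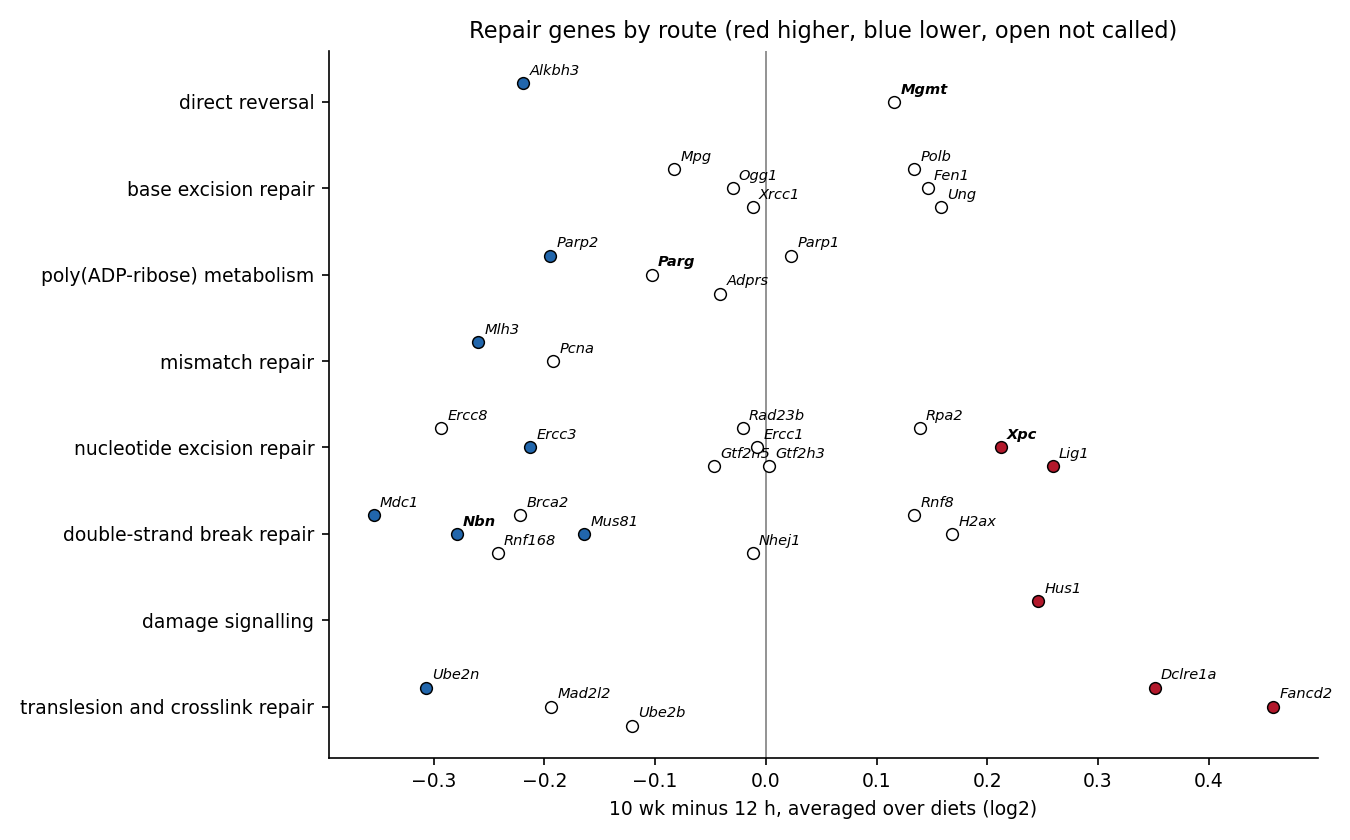
Difference of 10 wk from 12 h averaged over diets (x axis, log2) for each of 37 tested repair genes by route (y axis), with the 4 described genes in bold. Filled points passed an adjusted p of 0.05 and open points did not. Of the 37 genes 5 rose and 8 fell.

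Genes of proliferation and of other cell types were read in the same contrast, in which 36.9% of all tested probes were called. The proliferation genes Mki67, Ccna2 and Cdk1 were higher at 10 wk, by 0.60, 0.53 and 0.52 on the log2 scale (adjusted p-values 0.000374, 0.000477 and 0.00015), and Tyms was lower (-0.37, adjusted p = 0.00029), so that 3 of 5 tested genes were called higher and 1 lower. These 4 calls held with scan class as a block, at 0.54, 0.57, 0.55 and -0.34 (adjusted p-values 0.00473, 0.000767, 0.000631 and 0.0206). Of the 4 smooth muscle markers tested 3 were higher, Myh11 by 0.59, Tagln by 0.48 and Smtn by 0.30 (adjusted p-values 0.00487, 0.0224 and 0.00682). With the block Smtn alone was called, at 0.30 (adjusted p = 0.0407), with Myh11 at 0.50 (adjusted p = 0.0511) and Tagln at 0.35 (adjusted p = 0.203), and median scaling ended the call of Smtn. The summed level of the 4 markers ranged from 9.37 to 10.60 at 12 h and from 9.78 to 11.05 at 10 wk, with Cnn1 at the floor in 7 rats. The epithelial markers Vil1 and Car2, 2 of 2 tested, were not called, and their summed level ranged from 14.42 to 15.06 at 12 h and from 14.41 to 14.85 at 10 wk. Of 3 goblet and enteroendocrine markers Gcg was higher by 0.29 (adjusted p = 0.0457) and Sst lower (-0.30, adjusted p = 0.00444). The brighter probe of Tff3 was not called (-0.21, adjusted p = 0.0627), while its second probe was lower (-0.27, adjusted p = 0.0189). The fibroblast marker Col1a1 was lower (-0.23, adjusted p = 0.0492). With the block Sst was -0.23 (adjusted p = 0.0808) and Col1a1 -0.24 (adjusted p = 0.149), neither called, and Gcg was 0.41 (adjusted p = 0.0328). Leaving out a single rat ended the call of Gcg for 19 of the 29 rats and that of Col1a1 for 21. The leucocyte markers Ptprc and Cd14 were not called. Apoa1, an apolipoprotein of liver and intestine, was lower (-0.77, adjusted p = 0.000293; with the block -0.74, adjusted p = 0.0031), with a range of 11.45 to 12.67 at 12 h and 10.36 to 11.96 at 10 wk. The part of proliferation and of other cell types in the differences of Xpc and Nbn was not tested.

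Over the 29 rats the gene whose probe varied most like Mgmt was Ung, which encodes the glycosylase that removes uracil from DNA and is itself a member of the base excision list. The correlation was 0.822 by Pearson and 0.813 by Spearman, and 0.851 with group means removed. With scan class means removed it was 0.802 over 34 values of rats and classes. Ung ranged from 8.01 to 8.91, and the fish oil rat with the lowest Mgmt also had the lowest Ung. Next came Fxyd3 (0.811) and Ntmt1 (0.798). These rats share arrays with both probes, so array quality enters both, and the genes were picked as the highest of all tested probes with 1 symbol.

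**Figure D5:**
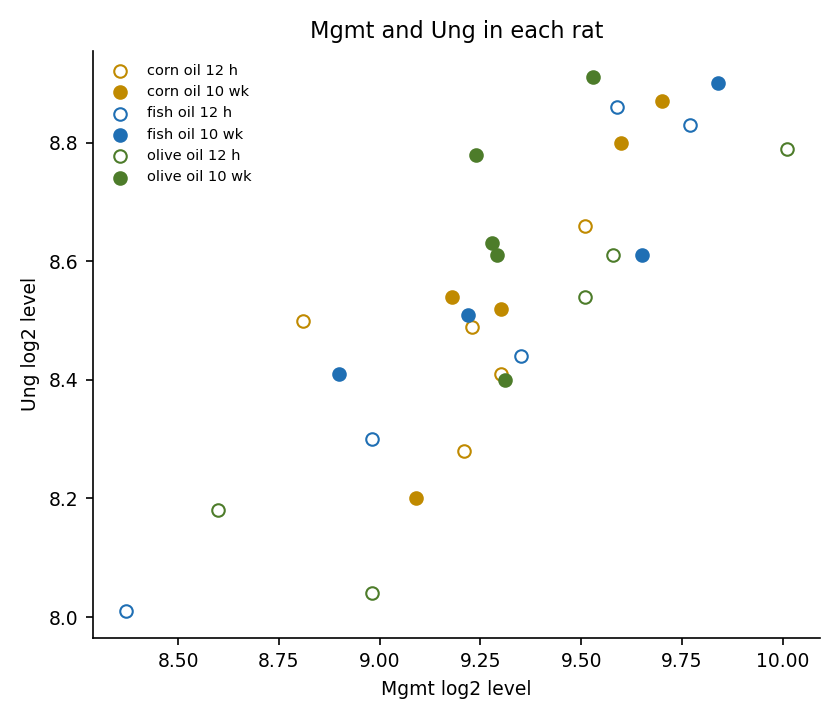
Log2 level of Mgmt (x axis) and of Ung (y axis) in each of 29 rats. Colour gives the diet, open points are 12 h and filled points 10 wk. Ung runs from 8.01 to 8.91 along the range of Mgmt, with Pearson r = 0.822.

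Each of the other 3 genes had its own nearest genes by the same measure. Xpc varied most like Cd2bp2 (0.826), Yeats2 (0.82) and Rpap3 (0.808), of which Yeats2 was at 0.629 with class means removed. Nbn varied most like Nup50 (0.883), Pde6d (0.835) and Pcmt1 (0.815), at 0.815, 0.764 and 0.816 with class means removed. Parg varied most like Nae1 (0.801), Fat1 (0.795) and Slc38a1 (0.791). The genes nearest to Xpc were themselves higher at 10 wk, by 0.27, 0.62 and 0.44, and those nearest to Nbn lower, at -0.35, -0.20 and -0.19, so these correlations hold the time difference too.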

How the data were processed

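Each array's file holds, per the file headers, intensities of 8452 spots: spot mean, median of the local background ring and noise level, with -9999 for missing spots (9 to 119 per array). Spot and ring areas and quality columns, of another kind than intensity, are in the same deposited files. The software that quantified them is, in the sources used here, not given. Arrays were 1-colour CodeLink arrays, per the labels, 43 in all, with 14 repeat arrays from 10 rats.

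Spot mean and background median were background-corrected (normexp, offset 50) and quantile normalized (limma 3.58.1, R 4.3.3). Values below the 10th percentile (log2 6.46) were set to it, log2 was taken, and repeat arrays were averaged per rat. Probes above the 30th percentile (log2 7.66) in at least 4 rats were tested, 6381 (75.5%). The number of rats limits precision. Median signal over background was 163 to 685 per array. One limma fit held all 6 groups, (residual degrees of freedom 23, prior 4.17), and p-values were adjusted by Benjamini-Hochberg over all tested probes at a threshold of 0.05. The fit was tested on simulated data.

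Platform annotation gave 6252 probes 1 symbol, 75 several and 2125 none, and the brightest probe stands for a gene. The Xpc probe is annotated through an expressed sequence tag. Scan classes were set by median spot area (at least 255) and ring area (at least 450). The block fit used 34 values of rats and classes with the rat as a random block (correlation 0.375). Alternatives covered background, scaling, floor, filter, the authors' normalized intensity, repeat arrays, 6 high-background arrays, scan class and each rat left out. The 4 genes and all lists were chosen with earlier results of these data known. Named were the 4 genes, up to 4 called genes per repair route, up to 3 per other list by size of difference, and the 3 genes most correlated with each of the 4. Beyond this rule, Tyms was named as the proliferation gene called lower, and some uncalled genes were named with their values.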

Additional observations from a re-analysis of the deposited data

Results flagged for a closer look

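In 2 of the 24 groups of 4 or 5 rats checked (4 genes in 6 groups), 1 rat stood apart from the others by Dixon's criterion. By this criterion chance alone sets a rat apart in about 1 of 20 groups. Mgmt in late olive oil rat 335 was 9.53, where the other 4 rats lay between 9.24 and 9.31. The gap was 0.757 of the group's range, above the critical value for 5 rats. Xpc in late fish oil rat 232 was 8.25, where the other 3 rats lay between 8.49 and 8.53. That gap was 0.854 of the range, above the critical value for 4 rats.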

How the results depend on the processing

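No paired analysis was possible because rat numbers are not shared between groups and the replicate numbers in the titles mark repeat arrays of one rat. Among 11 alternatives, the averaged differences changed call or sign as follows. Nbn in the deposited normalized intensity was -0.23 (adjusted p = 0.0651). With scan class as a block Xpc was 0.080 (adjusted p = 0.476) and Mgmt -0.056. Of the 4 genes 1 was called on average, in place of 2, with the deposited intensity and with the block, and within diets 0 and 1, in place of 3. Within diets 2 were called with median scaling, without background subtraction and with centred deposited arrays, the lost call being Xpc in fish oil (adjusted p = 0.0758, 0.0505 and 0.0775). Of the repair list 5 were called with the deposited intensity, of which 0 were lower, 8 with the block, 4 of them lower, and without a filter 8 were higher. With deposited arrays centred on their own median, an alternative chosen after seeing the data, 14 were called and all averaged calls of the 4 genes held. Signs that changed, none of them called in the first place, were Mgmt in olive oil (0.038 with median scaling, 0.051 deposited, 0.033 deposited and centred, 0.033 with first arrays), Mgmt in fish oil (-0.035 with the block), Nbn in corn oil (0.14 deposited) and Parg in corn oil (0.19 deposited, 0.0081 with first arrays, 0.055 with the block, 0.012 without high-background arrays). Without single rats the averaged ranges were 0.05 to 0.17 for Mgmt and -0.12 to -0.08 for Parg, Mgmt in fish oil ran from -0.022 (without rat 201) to 0.36 and in olive oil from -0.19 to 0.16, and Parg in corn oil from -0.093 to 0.014 (without rat 106). The calls of the 4 genes within diets numbered 1 to 3 without single rats, with 1 left without rat 202, 203, 205, 234 or 236, and those of the repair list 12 to 15. Calls over all probes were 2353 on average, 1217 deposited and 1372 with the block. They were 193 in corn oil (326 without a filter, 341 with the rat as a block, 305 with the scan class block, 64 to 266 without single rats), 773 in fish oil (153 deposited, 368 with the block, 339 to 856 without single rats) and 852 in olive oil (122, 267 and 456 to 943). Diets at 12 h gave 0, or 4 without a filter, 22 with first arrays and 5 without high-background arrays. Diets at 10 wk gave 0, or 1 without a filter and 1 deposited, and up to 22 without single rats, and diet by time 0, or 7 with first arrays. The signal of Xpc was as low as 1.96 times the noise level on 1 array, the lowest of the 4 genes, and 4 or 5 rats per group limit what could be called.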
